A study of Mus musculus with 15 samples.

Results

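The proteasome subunit genes and Sem1 were followed in bone marrow stem and progenitor cells of mice carrying 2 mutations that drive myeloproliferative disease, Idh2 R140Q and Jak2 V617F. The members were all protein-coding genes of the mouse GENCODE annotation (GRCm38) with a symbol of the letters Psma, Psmb, Psmc or Psmd and a number, leaving out the interferon-inducible Psmb8 and Psmb9, plus Sem1. This gave 38 genes of the 45232 gene identifiers in the count table, and 37 of them passed the filter on low counts, among 17834 genes tested in all. By place in the complex they were 8 alpha ring genes, 9 beta ring genes, 6 base ATPases, 3 other base subunits, 9 lid subunits and 3 assembly chaperones of the base. The untested member was Psmb11, a beta subunit of thymus epithelium, which stayed between 0 and 0.118 CPM, the library-scaled count used below for levels.

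Messenger RNA was sequenced from CD45.2+ LSK cells (lineage-negative, Sca-1+ and c-Kit+), the sorted fraction of C57BL/6 bone marrow that holds the stem cells, in 5 groups of 3 libraries. Both mutant alleles were switched on in blood-forming cells by Mx1-Cre after polyI:polyC, and marrow of these mice was transplanted, mixed with CD45.1 competitor marrow, into irradiated CD45.1 hosts. Hosts then received vehicle, the inhibitor of mutant IDH2 AG221 (40 mg/kg by the labels), the JAK inhibitor ruxolitinib (60 mg/kg, the group Rux) or both agents (combined therapy, the group combo), given 2 times a day by gavage for 21 to 28 days, with the last dose about 1.5 hours before the animals were killed. The group WT was labelled wild type, with no statement in the labels of whether its cells had passed through a transplant or what treatment they had received. Neither the labels nor the methods said whether a library came from 1 mouse, so the tests measure the spread between libraries. Names starting with A were given to all vehicle, AG221 and Rux libraries and names starting with B to all combo and WT libraries, so this letter and the groups cannot be told apart.

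The 26S proteasome is the cell's main machine for breaking down proteins tagged with ubiquitin. Its 20S core is a barrel of alpha rings outside and beta rings inside, where Psmb5, Psmb6 and Psmb7 carry the chymotrypsin-like, caspase-like and trypsin-like cutting sites. The 19S cap holds a ring of ATPases that unfolds the substrate, and a lid that removes its ubiquitin chain. The genes are known to be transcribed together, in part by the factor Nrf1 (gene Nfe2l1), which acts through antioxidant response elements. Stem cells of the blood are known for a low rate of protein synthesis and for sensitivity to disturbed protein turnover.

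Promoter sequence was at hand from RefSeq for 31 of the 38 members, as windows from 250 bases before to 50 bases after the annotated start. The letters TGACNNNGC, the core of an antioxidant response element, were searched on both strands, N being any base. They stood in 6 of 31 member promoters (19.4%), against 13.99% of all 27025 promoters and 16.8% of those of tested genes. The letters CCGGAAGT, a site of ETS factors, stood in 6 of 31 (19.4%), against 4.31% of all promoters and 8.21% of those of tested genes. Both shares are descriptions of these windows. Shown here are 6 stretches (GRCm38.p6), each from 100 bases before to 30 bases after the start and read along the gene, with either motif in capitals. Sem1, Psmb5 and Psmb6 are shown because they hold the TGACNNNGC letters, in Sem1 from 20 bases after the start, Psmd12 and Psmd13 because they hold CCGGAAGT, and Psmd5 because it moved apart from the other members and its window holds neither.
Sem1, chr6:6578629-6578758, minus strand: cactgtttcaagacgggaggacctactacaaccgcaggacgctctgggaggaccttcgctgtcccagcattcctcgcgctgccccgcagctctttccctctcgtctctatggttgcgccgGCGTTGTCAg
Psmb5, chr14:54617966-54618095, minus strand: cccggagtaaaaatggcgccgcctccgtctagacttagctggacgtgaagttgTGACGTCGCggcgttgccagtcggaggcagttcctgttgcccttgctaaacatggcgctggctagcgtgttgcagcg
Psmb6, chr11:70525257-70525386, plus strand: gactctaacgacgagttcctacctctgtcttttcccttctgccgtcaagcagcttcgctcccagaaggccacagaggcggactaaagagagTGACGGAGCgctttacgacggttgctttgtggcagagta
Psmd12, chr11:107479428-107479557, plus strand: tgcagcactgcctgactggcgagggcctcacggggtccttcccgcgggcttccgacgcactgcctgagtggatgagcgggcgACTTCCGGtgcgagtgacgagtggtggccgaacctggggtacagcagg
Psmd13, chr7:140882294-140882423, plus strand: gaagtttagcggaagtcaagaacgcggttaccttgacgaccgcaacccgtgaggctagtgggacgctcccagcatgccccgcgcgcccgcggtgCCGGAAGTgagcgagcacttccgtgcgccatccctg
Psmd5, chr2:34870933-34871062, minus strand: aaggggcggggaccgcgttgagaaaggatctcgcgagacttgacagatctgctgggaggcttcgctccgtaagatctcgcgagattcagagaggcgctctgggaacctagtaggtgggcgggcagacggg
The remaining TGACNNNGC matches were in Psmc6, Psmd9 and, outside the stretch shown, Psmd12. The remaining CCGGAAGT matches were in Psma6, Psmc1, Psmc2 and Psmd6. Of the other motifs, CCAAT stood in 12 of 31 member promoters (38.7%, against 41.1% of all and 42.2% of those of tested genes) and GGGCGG in 18 (58.1%, against 38.2% and 63.9%). CACGTG stood in 3 (9.68%, against 8.09% of all and 11.02% of those of tested genes) and TATAAA in 4 (12.9%, against 15.7% and 9.48%), so for both the direction turned with the promoters compared. TTCNNNGAA, letters of a STAT site, stood in 1 (3.23%, against 9.55% of all and 8.48% of those of tested genes). The palindrome of the factor NRF-1, searched by its unvaried letters, stood in 1 (3.23%, against 1.07% and 2.13%). Despite the similar name, NRF-1 is a different factor from Nrf1, the product of Nfe2l1.

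Library totals lay between 18836625 and 32174287 counts, so 3 counts corresponded to between 0.0932 and 0.159 CPM. Counting error was small for every member but Psmb11 and, in its lowest libraries, Psma8. WT libraries stood apart. They had counts in 29782 to 34487 genes, against 21369 to 26329 in the 12 mutant libraries, and trimmed mean (TMM) scaling factors of 1.13 to 1.17, against 0.916 to 1.02. Xist, made from the inactive X of females, was at 455 to 511 CPM in WT and at 0.365 to 19.5 CPM in the mutant libraries, and the Y-linked Ddx3y was at 0 to 0.101 CPM in WT against 124 to 206 CPM, so sex and genotype cannot be told apart. Kit and Cd34 were present in all 15 libraries, and the summed level of 11 LSK markers was 4291 to 4681 CPM in WT and 2444 to 3812 CPM in the mutant libraries. In bulk libraries, fewer cells of a type and less RNA per cell cannot be told apart.

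Summed over the 38 members, the level was lowest in WT, at 5559, 5283 and 6602 CPM in libraries B28, B30 and B31. The combo libraries B24, B25 and B26 held 7176, 8638 and 8387 CPM, and the vehicle libraries A1, A3 and A4 held 9206, 7458 and 9812 CPM. Rux libraries A14, A16 and A17 held 8329, 10686 and 8746 CPM, and AG221 libraries A8, A9 and A10 held 13395, 10157 and 11940 CPM. All mutant libraries therefore lay above all WT libraries, the vehicle, Rux and combo libraries overlapped, and 2 of the 3 AG221 libraries lay above every other library. The group means were 5815 ± 696 (SD, n = 3) CPM in WT, 8067 ± 782 in combo, 8826 ± 1222 in vehicle, 9254 ± 1258 in Rux and 11830 ± 1622 in AG221.

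**Figure D1:**
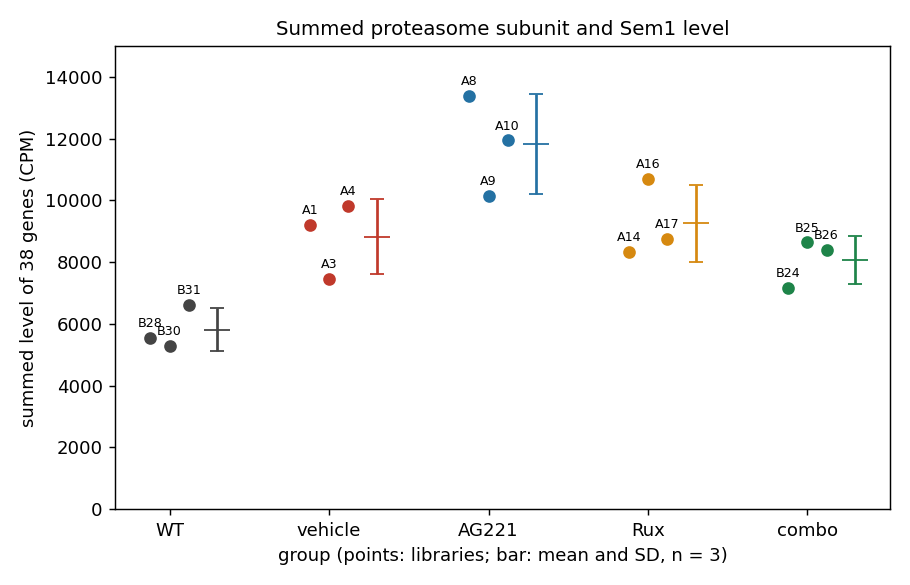
Summed CPM of the 38 members in each library (points, named by replicate), with the mean and SD of each group (bars, n = 3), on an axis that starts at 0. WT libraries lie between 5283 and 6602 CPM and AG221 libraries between 10157 and 13395 CPM, and the other libraries between 7176 and 10686 CPM.

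The members mostly moved together from library to library. Counting for each library how many of the tested members lay above their own median over the 15 libraries gave 0, 0 and 3 in WT B28, B30 and B31. In the AG221 libraries A8, A9 and A10 it gave 31, 35 and 31 of 37. Within the other groups the libraries differed widely, with 35, 1 and 34 in vehicle A1, A3 and A4, 7, 33 and 24 in Rux A14, A16 and A17, and 2, 14 and 9 in combo B24, B25 and B26. Vehicle A3 thus sat low, and Rux A16 high, for most members at once. Rux A16 also stood apart in 6 erythroid markers, which summed to 1015 CPM there against 218 and 190 CPM in A14 and A17, and their part in its high member levels was not tested. Psma8, a testis form of the alpha subunit, did not take part, with a level from 0.0463 to 46.9 CPM. Its combo libraries, at 0.0463 to 5.74 CPM, lay below every WT library (15.5 to 21.0 CPM) and every Rux library (8.24 to 33.0 CPM), and its other groups overlapped.

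**Figure D2:**
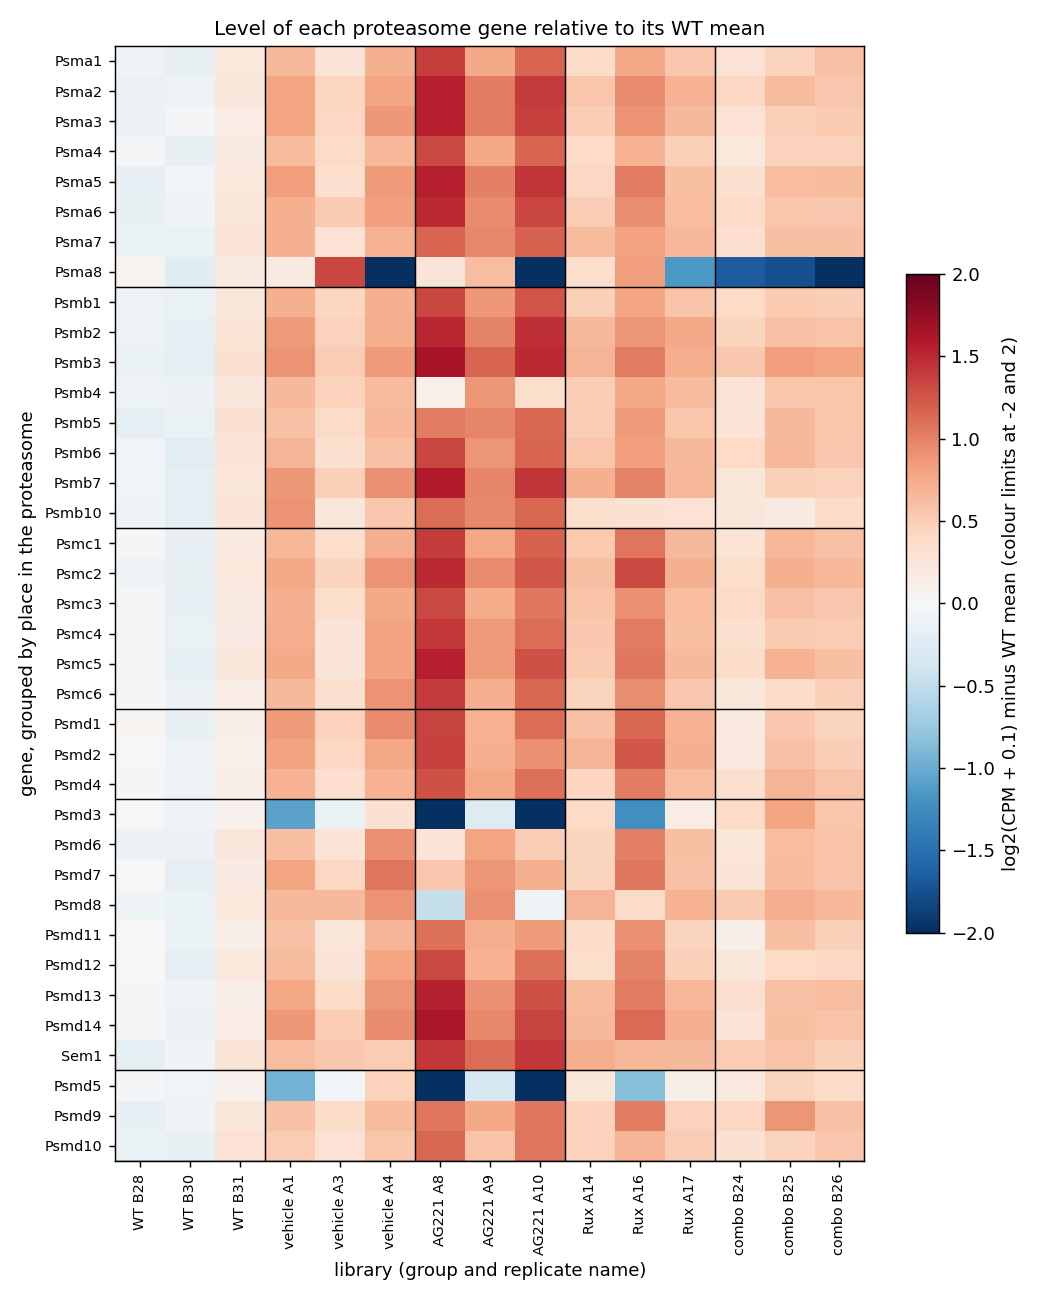
Each row is 1 of the 37 tested members, each column 1 library, and the colour is log2(CPM + 0.1) minus the WT mean of that gene. Most rows are redder in every mutant library than in WT and reddest in AG221 A8 and A10, whereas Psmd3 and Psmd5 are blue in those 2 libraries, and also in vehicle A1 and Rux A16.

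Per kilobase of exon, which allows genes to be compared, the WT level ran from 5.98 ± 0.858 CPM per kb (mean ± SD, n = 3) in Psmd9, an assembly chaperone, to 168 ± 24.9 in Psma6. Psmb2, at 152 ± 26.6, differed from Psma6 by less than either SD, and Psma8 followed Psmd9 at 7.44 ± 1.11. Among the standard cutting subunits Psmb6 was at 95.8 ± 16.1, Psmb5 at 53.9 ± 10.3 and Psmb7 at 25.05 ± 4.03 CPM per kb in WT. Psmb10, the immunoproteasome counterpart of Psmb7, was at 68.6 ± 11.3. The members had shorter exons than other genes, with a median of 2808 bases against 3749 over all tested genes, a similar GC content of 48.5% against 49.4%, and a much higher mean level, with a median of 231 CPM against 11.9 CPM.

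**Figure D3:**
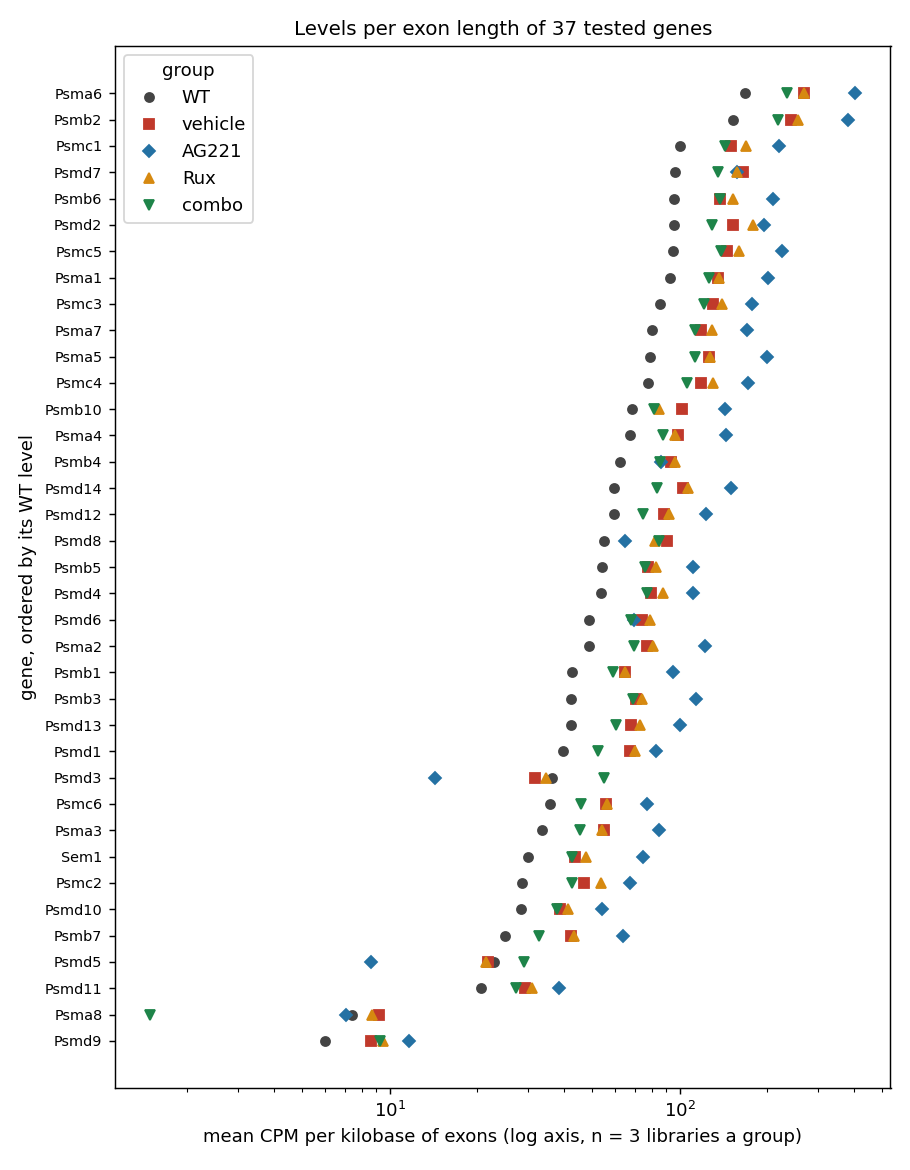
Mean CPM per kilobase of exons (log axis) of each tested member in the 5 groups (3 libraries each), ordered by WT level. For most members the WT mark is leftmost and the AG221 mark rightmost, with Psma8, Psmb4, Psmd3, Psmd5, Psmd6, Psmd7 and Psmd8 as exceptions.

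In vehicle-treated mutant cells against WT, 33 of the 37 tested members rose and 0 fell, where 15.4% of all tested genes rose and 17.9% fell. Their median log2 fold change was 0.61, against a median of -0.09 over all tested genes. The rise ran through every layer of the complex. It was called for 7 of 8 alpha ring genes, 8 of 8 tested beta ring genes, 6 of 6 base ATPases, 3 of 3 other base subunits and 8 of 9 lid subunits, with medians between 0.59 and 0.67, and for 1 of 3 base chaperones. The exceptions were Psma8, Psmd3, Psmd5 and Psmd10, the last at a log2 fold change of 0.45 ± 0.17 (SE, adjusted p = 0.0617). In 33 members every vehicle library lay above every WT library, as in 25.6% of all tested genes.

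The smallest p among the members that rose belonged to Psma3, an alpha ring subunit (chr12:70974621-70996347, plus strand), Sem1 and Psmb3. Psma3 was at 121, 127 and 145 CPM in WT B28, B30 and B31 and at 226, 175 and 238 CPM in vehicle A1, A3 and A4, a log2 fold change of 0.70 ± 0.17 (adjusted p = 0.0099). Psmb3, a beta ring subunit (chr11:97703399-97713500, plus strand), was at 87.7, 85.0 and 119 CPM in WT and at 180, 137 and 173 CPM in vehicle, a log2 fold change of 0.75 ± 0.18 (adjusted p = 0.01). The groups did not overlap for either gene, and vehicle A3 was the lowest vehicle library for both.

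Sem1 encodes a small, disordered subunit of the lid that is also known as a partner of BRCA2 (chr6:6557294-6578663, minus strand). It stood at 92.2, 101 and 126 CPM in WT B28, B30 and B31 and at 161, 153 and 151 CPM in vehicle A1, A3 and A4, a log2 fold change of 0.54 ± 0.13 (adjusted p = 0.0102). The 3 vehicle libraries were close to each other, and vehicle A3 was not low for Sem1. Psmd14, the lid enzyme that cuts off the ubiquitin chain, had the largest log2 fold change of the members, 0.78 ± 0.19 (adjusted p = 0.0109).

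The catalytic subunits all rose. Psmb5 (chr14:54614119-54618022, minus strand) was at 42.4, 43.7 and 59.1 CPM in WT and at 71.7, 62.2 and 75.9 CPM in vehicle, a log2 fold change of 0.53 ± 0.16 (adjusted p = 0.0263). Psmb6 (chr11:70525367-70527858, plus strand) was at 171, 154 and 213 CPM in WT and at 284, 223 and 268 CPM in vehicle, a log2 fold change of 0.53 ± 0.16 (adjusted p = 0.0246). For both, the lowest vehicle library stood just above the highest WT library. Psmb7 (chr2:38588036-38644087, minus strand) was at 82.0, 74.1 and 101 CPM in WT and at 154, 118 and 159 CPM in vehicle, a log2 fold change of 0.75 ± 0.18 (adjusted p = 0.0108). Psmb10 (chr8:105935735-105938444, minus strand) was at 110, 103 and 139 CPM in WT and at 217, 136 and 168 CPM in vehicle, so the groups overlapped, with a log2 fold change of 0.57 ± 0.16 (adjusted p = 0.0196).

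The count of 33 rested on single libraries and on the scaling. It was 1 without WT B30, 12 without vehicle A1, 13 without vehicle A4, 15 without WT B28, 32 without vehicle A3 and 33 without WT B31. The median log2 fold change stayed between 0.53 and 0.75 over these fits. Over all genes, 1901 of 18054 were called in either direction without WT B30 and 3493 of 19116 without vehicle A1. Without vehicle A4 and without WT B28 these were 3717 of 19125 and 4286 of 18684. Without the TMM factors the count of members was 5, with a median of 0.34, where 5285 of 17834 genes were called in either direction. The median of all tested genes then shifted by -0.26, so that the members' median lay 0.70 above that of all genes under both scalings. A scaling factor shifts all genes of a library nearly alike, so this difference is no check on the count. Of other cell types, 7 plasma cell markers summed to 637 to 1324 CPM in WT and 65.8 to 157 CPM in vehicle, with 6 of the 7 lower in every vehicle library. A list of 7 neutrophil markers summed to 3254 to 3607 CPM in WT and 7228 to 12047 CPM in vehicle, mostly from the precursor markers Mpo and Elane. In that list 4 of the 7 were higher in every vehicle library, while Camp, S100a8 and S100a9 overlapped WT. Tnfrsf17, a defining plasma cell marker, was at most 0.113 CPM in vehicle. Mast cell and basophil markers summed to 71.2 to 147 CPM in WT and 496 to 990 CPM in vehicle (4 of 5 higher in every library), megakaryocyte markers to 245 to 334 CPM and 857 to 918 CPM (4 of 5), and erythroid markers to 62.8 to 94.6 CPM and 170 to 330 CPM (5 of 6). The part of these cell types in the members' rise was not tested.

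In AG221-treated cells against WT the rise was larger. Of the 37 tested members 33 rose and 1 fell, against 22.2% and 28.5% of all tested genes, with a median log2 fold change of 1.10 against -0.25 over all genes. Psmb3 had the largest log2 fold change, 1.43 ± 0.18 (adjusted p = 0.000169), and Sem1 the smallest p, at 1.31 ± 0.13 (adjusted p = 3.67e-05). Psmb4 at 0.47 ± 0.18 (adjusted p = 0.0443), Psmd6 at 0.52 ± 0.20 (adjusted p = 0.0456) and Psmd7 at 0.71 ± 0.19 (adjusted p = 0.00912) had the smallest log2 fold changes of those that rose. The member that fell was Psmd5, at -1.41 ± 0.52 (adjusted p = 0.0378), and Psmd3 was at -1.34 ± 0.56 (adjusted p = 0.0581). The count of 33 was 31 to 33 when any 1 AG221 or WT library was left out. With AG221 A8 and A10 both left out, the spread of the lone AG221 library is taken from the other groups. No conclusion is therefore drawn from the calls and counts of that fit. The fall of Psmd5 was not called without A8, without A10 or without any 1 of the WT libraries.

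Between AG221 and vehicle, both mutant, 1 of 37 members passed the test, where 0.471% of all tested genes rose and 0.516% fell. That gene was Sem1, at 281, 229 and 282 CPM in AG221 A8, A9 and A10 against 161, 153 and 151 CPM in vehicle. All 3 AG221 libraries lay above all vehicle libraries, with a log2 fold change of 0.77 ± 0.13 (adjusted p = 0.0458). The call was lost without vehicle A1, A3 or A4 (adjusted p = 0.0829, 0.101 and 0.0819) and without AG221 A8 or A10 (adjusted p = 0.176 and 0.108), and was kept without A9, at 0.86 ± 0.12 (adjusted p = 0.000565). Over the members the median log2 fold change was 0.53, against -0.01 over all genes, with 28 members at an unadjusted p under 0.05 (25.2% of all genes) and 25 higher in every AG221 library than in every vehicle library (12.7% of all genes).

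Among the cutting subunits Psmb5 was at 98.8, 94.2 and 106 CPM in AG221 A8, A9 and A10, all above the vehicle libraries, with a log2 fold change of 0.51 ± 0.16 (adjusted p = 0.0962). Psmb6 was at 449, 327 and 400 CPM, again all above vehicle, with 0.60 ± 0.16 (adjusted p = 0.0638). Psmb7 was at 256, 168 and 230 CPM, with 0.60 ± 0.18 (adjusted p = 0.0839), and Psmb10 at 252, 225 and 258 CPM, with 0.50 ± 0.16 (adjusted p = 0.0996). None of these 4 passed the test, although their AG221 libraries did not overlap vehicle.

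The AG221 libraries were not alike. In A8 and A10 most members were higher than in A9, 30 of 37 members against 37.3% of all tested genes. Both were lower than A9 for 7 members (45.3% of all genes), which were Psma8, Psmb4, Psmd3, Psmd5, Psmd6, Psmd7 and Psmd8, so 4 of the 9 lid genes were among them. For 3 members, Psmd3, Psmd5 and Psmd8, both were under 0.5 of the A9 level, as for 16.9% of all genes. Some marker lists were highest in A9, with sums in A8, A9 and A10 of 38.4, 120 and 35.4 CPM for the plasma cell list, 122, 290 and 137 CPM for the erythroid list and 348, 580 and 489 CPM for the megakaryocyte list. The plasma cell sum was mostly Xbp1, at 21.6 to 90.7 CPM in AG221, with Tnfrsf17 at most 0.188 CPM. Others were lowest in A9, with 2789, 2567 and 2995 CPM for LSK, 54.7, 40.7 and 57.0 CPM for B-lineage, and 763, 599 and 684 CPM for T and NK, nearly all Nkg7. The other lists had A9 between A8 and A10. The part of these markers in the split was not tested. Without A9, 26 members rose and 3 (Psmd3, Psmd5 and Psmd8) fell in AG221 against vehicle. Over all genes, that fit called 4672 of 19125 in either direction, so many calls were added outside the members too. With A8 and A10 both left out, the members' median log2 fold change was 0.22, against 0 over all genes.

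Psmd3, a lid subunit (chr11:98682554-98695979, plus strand), was at 30.3, 150 and 33.6 CPM in AG221 A8, A9 and A10 and at 86.0, 165 and 223 CPM in vehicle A1, A3 and A4, a log2 fold change of -1.15 ± 0.55 (adjusted p = 0.213). Psmd5, which helps to assemble the ATPase ring (chr2:34849734-34874968, minus strand), was at 25.4, 131 and 31.2 CPM against 85.9, 160 and 229 CPM, a log2 fold change of -1.34 ± 0.52 (adjusted p = 0.14). Psmd8, another lid subunit (chr7:29174188-29180701, minus strand), was at 120, 315 and 158 CPM against 262, 260 and 309 CPM, at -0.49 ± 0.26 (adjusted p = 0.262). In these genes the groups overlapped, with A9 within or above the vehicle range. Vehicle A1 and, in the Rux group, A16 were likewise the lowest of their groups for Psmd3 and Psmd5.

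**Figure D4:**
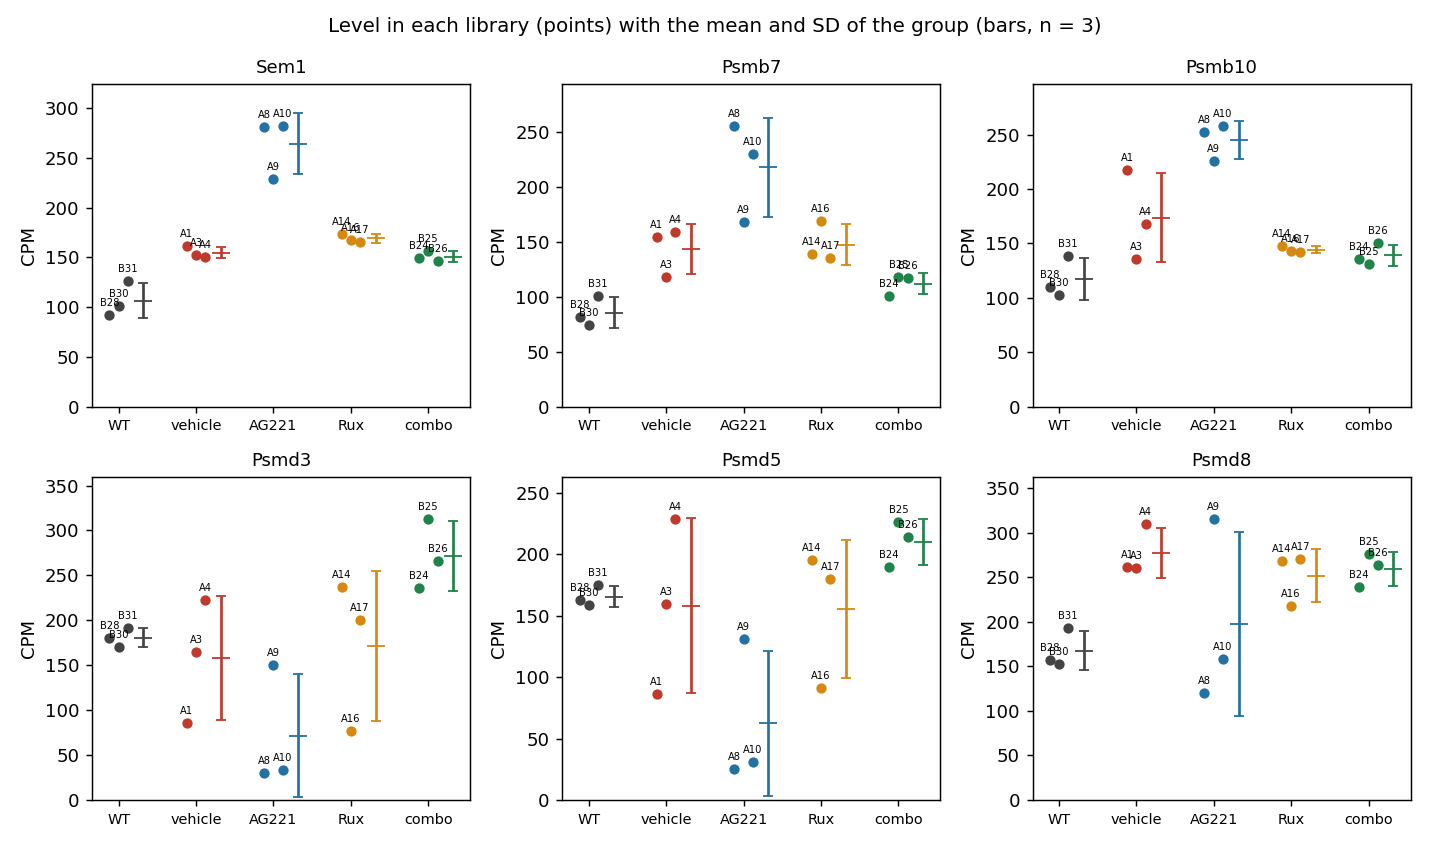
Level in CPM of Sem1, Psmb7, Psmb10, Psmd3, Psmd5 and Psmd8 in each library (points, named by replicate) with the mean and SD of each group (bars, n = 3). Sem1 is at 229 to 282 CPM in AG221 and at most 174 CPM elsewhere, while Psmd3 and Psmd5 are at 25.4 to 33.6 CPM in AG221 A8 and A10, below all other libraries.

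The neutrophil markers were also higher in AG221 than in vehicle. Their sum was 15787 to 18676 CPM in AG221 and 7228 to 12047 CPM in vehicle, and 7 of the 7 were higher in every AG221 library than in every vehicle library. In Rux the sum was 11470 to 18130 CPM, overlapping AG221, while the summed member level of Rux A14 and A17 was below every AG221 library. Vehicle A3 had the highest marker sum of its group, 12047 CPM, and the lowest summed member level, 7458 CPM. Rux A14 likewise had the highest marker sum, 18130 CPM, and the lowest member level, 8329 CPM. In AG221 A8 both were the highest of the group, and in combo B24 both the lowest. The part of the markers in the members' differences was not tested.

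In ruxolitinib-treated against vehicle-treated cells 0 of 37 members passed the test in either direction, as did 0% of all genes upward and 0.0168% downward. The median log2 fold change was 0.07, with a range of -0.27 to 0.23, and 0 members had an unadjusted p under 0.05, where 4.56% of all genes did. Leaving out single libraries moved this median between -0.05 and 0.15, and DESeq2 also called 0 members. Against WT, 32 members rose and 0 fell in Rux, against 16.1% and 16.2% of all genes, with a median of 0.68 against -0.14. Psmc2, an ATPase of the base, had the largest log2 fold change in that comparison, 0.91 ± 0.21 (adjusted p = 0.00857). Psmb10 did not pass, at 148, 143 and 142 CPM in Rux A14, A16 and A17 and 0.30 ± 0.16 (adjusted p = 0.161). Sem1 was at 174, 167 and 166 CPM, at 0.67 ± 0.13 above WT (adjusted p = 0.0043), and was the 1 member for which all Rux libraries lay above all vehicle libraries (3.67% of all genes). Without WT B30 the count of 32 was 12, without Rux A16 it was 19, without WT B28 it was 20, and without the TMM factors it was 18. Over all genes, these fits called 1910 of 18054, 3103 of 19129, 3650 of 18684 and 5368 of 17834 in either direction.

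Combined therapy left few calls against WT, but a positive median. In combo against WT 1 of 37 members rose and 0 fell, against 1.63% and 1.61% of all genes. That gene was Psmb3, at 139, 171 and 165 CPM in combo B24, B25 and B26 and 0.71 ± 0.18 above WT (adjusted p = 0.0465). The median over the members was 0.49, against 0.04 over all genes. An unadjusted p under 0.05 was reached by 29 members, where 25.4% of all genes reached it, and 32 members lay above WT in every combo library, where 22.3% of all genes did. Sem1 was at 149, 157 and 146 CPM, 0.50 ± 0.13 above WT (adjusted p = 0.0506), and Psmb10 at 136, 131 and 150 CPM, 0.25 ± 0.16 above WT (adjusted p = 0.354). The count of 1 became 0 without any 1 of the combo libraries, WT B28 or WT B30, 3 without WT B31, and 4 with DESeq2. The fits with 0 members called 88 to 403 genes in all. Without WT B31 415 of 18734 genes were called in either direction, and with DESeq2 1800 of 37904.

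Against vehicle, combined therapy changed 0 of 37 members by the test, where 8.28% of all genes rose and 4.21% fell. The median log2 fold change was -0.13, against 0.04 over all genes, 1 member had an unadjusted p under 0.05 (26.4% of all genes), and DESeq2 called 0. That member was Psma8, at 5.74, 5.39 and 0.0463 CPM in combo B24, B25 and B26 against 20.8, 46.9 and 1.18 CPM in vehicle A1, A3 and A4, a log2 fold change of -2.62 ± 1.19 (adjusted p = 0.178). Psmb7 was at 101, 118 and 117 CPM, at -0.36 ± 0.18 (adjusted p = 0.223), with combo B25 just above vehicle A3. Combo against Rux also gave 0 members in either direction, against 8.5% and 3.94% of all genes, with a median of -0.20 and 3 members at an unadjusted p under 0.05 (25.4% of all genes), and DESeq2 called 0. In 10 members every combo library was below every Rux library, as in 15.6% of all genes.

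The comparison of AG221 with and without ruxolitinib gave many calls in the members. In combo against AG221, 28 of 37 members fell and 2 rose, where 14.3% of all genes fell and 18.9% rose, and the median was -0.67 against 0.11 over all genes. Falls were called for 7 of 8 alpha ring genes, 7 of 8 tested beta ring genes, 6 of 6 ATPases, 3 of 3 other base subunits, 4 of 9 lid subunits and 1 of 3 chaperones. Sem1 had the smallest p, falling from 281, 229 and 282 CPM in AG221 to 149, 157 and 146 CPM in combo, at -0.81 ± 0.13 (adjusted p = 0.00227). Psma3 fell from 385, 267 and 338 CPM to 160, 183 and 188 CPM, at -0.90 ± 0.17 (adjusted p = 0.00318). Both genes were without overlap between the groups. Psmb7 fell from 256, 168 and 230 CPM to 101, 118 and 117 CPM, at -0.96 ± 0.18 (adjusted p = 0.0033), and Psmb10 at -0.82 ± 0.16 (adjusted p = 0.00386). Psmb5 fell to 58.2, 75.4 and 70.6 CPM, at -0.55 ± 0.16 (adjusted p = 0.0209), and Psmb6 to 233, 281 and 259 CPM, at -0.61 ± 0.16 (adjusted p = 0.0122). Psmd11, a lid subunit, was at -0.49 ± 0.18 (adjusted p = 0.0541) and did not pass.

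The 2 members that rose in combo against AG221 were Psmd3 and Psmd5. Psmd3 was at 236, 313 and 266 CPM in combo B24, B25 and B26, a log2 fold change of 1.93 ± 0.57 (adjusted p = 0.0199) over the 30.3, 150 and 33.6 CPM of AG221. Psmd5 was at 189, 226 and 214 CPM, a log2 fold change of 1.75 ± 0.53 (adjusted p = 0.0224) over 25.4, 131 and 31.2 CPM. The groups did not overlap, and AG221 A9 lay much nearer to combo than A8 and A10 did. Both calls were lost without A8, without A10 and without combo B25, and both were kept without A9, where Psmd8 rose too. The 28 falls were 15 without A8, 18 without A10 and 13 without combo B24. Over all genes, these fits called 3002 of 19121, 3234 of 19093 and 3283 of 18988 in either direction. With A8 and A10 both left out, the members' median was -0.40, against 0.06 over all genes. The neutrophil markers were also lower in combo, at 3966 to 6977 CPM against 15787 to 18676 CPM, with 7 of the 7 lower in every library, and their part in this was not tested. AG221 libraries carry names with A and combo libraries names with B, and what this letter stands for cannot be told apart from the treatment.

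**Figure D5:**
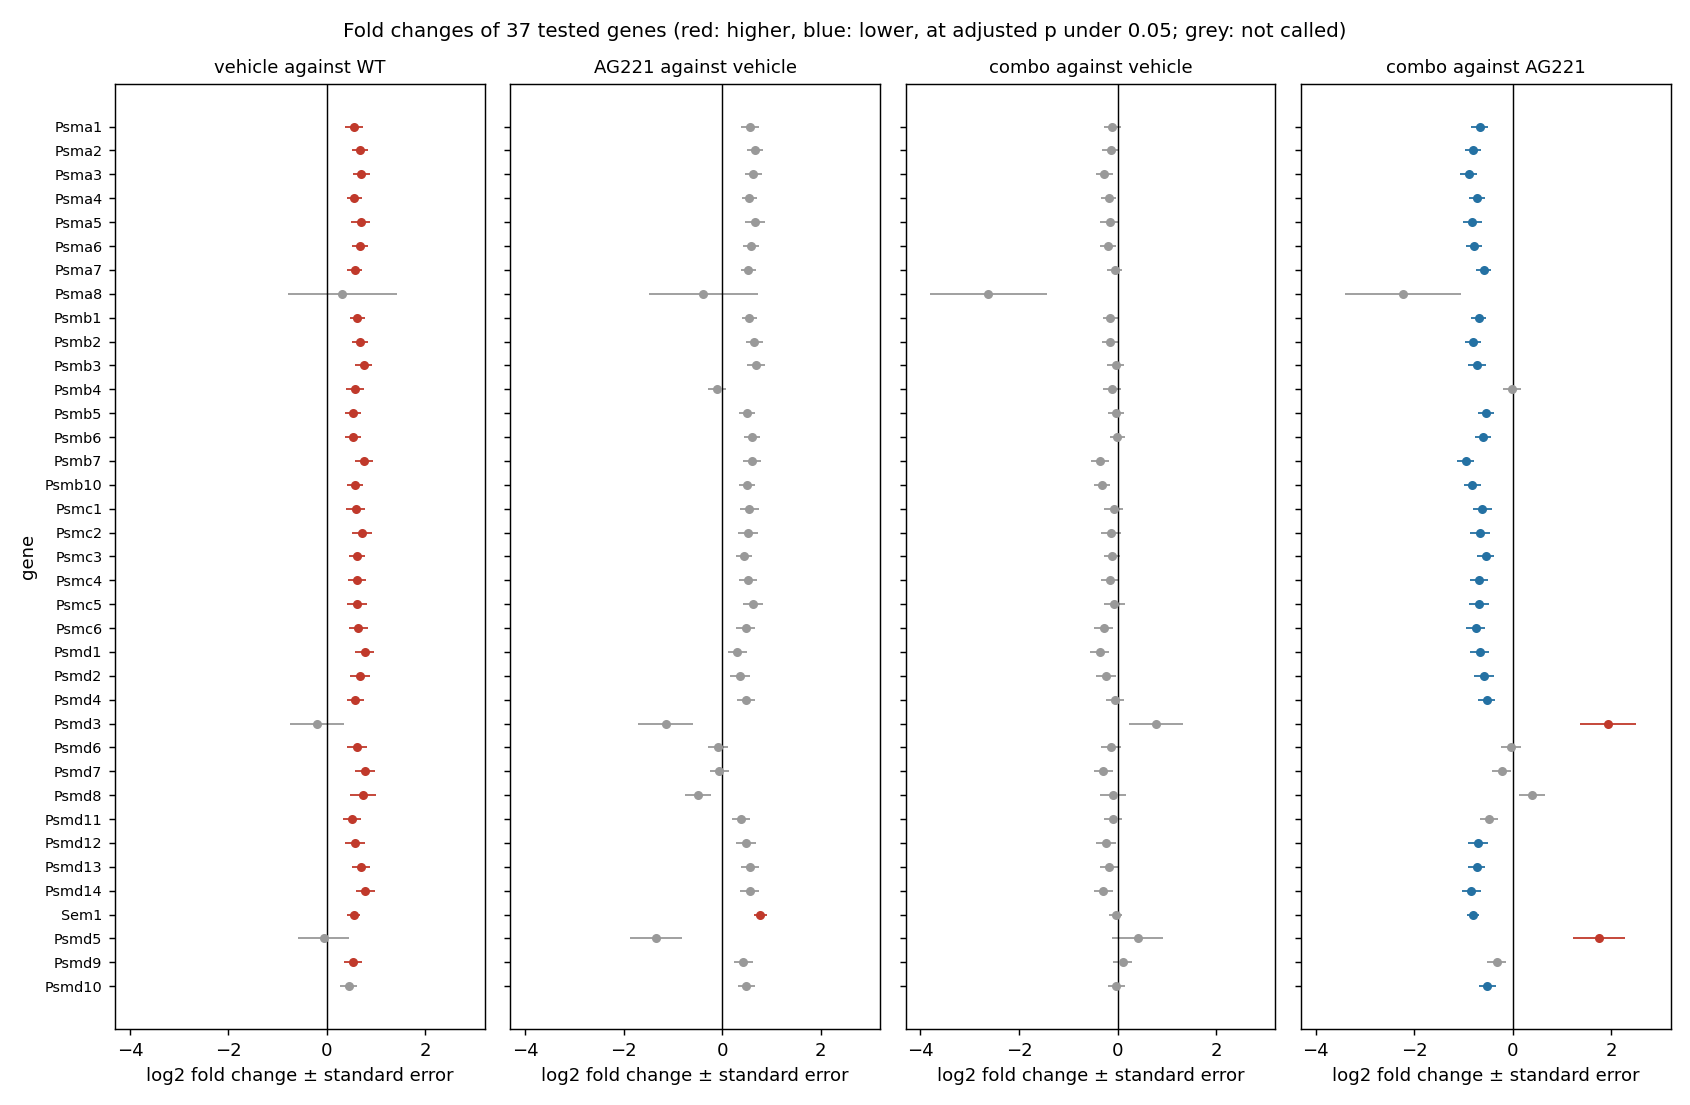
Log2 fold change with its standard error for each tested member in 4 comparisons, coloured by the call at an adjusted p under 0.05. In vehicle against WT 33 genes are red, in AG221 against vehicle Sem1 alone, in combo against vehicle 0, and in combo against AG221 28 are blue and Psmd3 and Psmd5 are red.

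Whether AG221 acted differently with ruxolitinib than without was tested as the interaction, the log2 change from Rux to combo minus that from vehicle to AG221. It was negative and passed the test for 6 members, Psmb7, Psma7, Psmb2, Sem1, Psma2 and Psma3, and positive for 0, against 2.82% and 5.6% of all genes. The median over the members was -0.75, against 0.07 over all genes, and 31 members had an unadjusted p under 0.05 (32% of all genes). Sem1 had an interaction of -0.94 ± 0.18 on the log2 scale (adjusted p = 0.0255). Psmd3 and Psmd5, at 1.81 ± 0.78 (adjusted p = 0.131) and 1.77 ± 0.73 (adjusted p = 0.117), had the opposite sign and did not pass. The count of 6 was 27 negative and 3 positive (Psmd3, Psmd5 and Psmd8) without AG221 A9, and 0 without vehicle A3 or A4, AG221 A8 or A10, Rux A17, or combo B24 or B25. It was 1 without Rux A16 and 3 without combo B26. Over all genes, 6087 of 19125 were called in either direction without AG221 A9. The fits with 0 members called 44 to 172 genes in all. Those without Rux A16 and without combo B26 called 218 of 19129 and 1460 of 19145. The summed neutrophil markers stood at 7228 to 12047 CPM in vehicle, 15787 to 18676 CPM in AG221, 11470 to 18130 CPM in Rux and 3966 to 6977 CPM in combo. Their part in the interaction was not tested.

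Other genes of the pathway, which were not members, moved in part with them. Of 7 genes of the immunoproteasome, its PA28 activator and antigen loading, 3 rose in vehicle against WT (Psme2 at 0.71 ± 0.19, Psmb9 at 0.50 ± 0.16 and Psmb8 at 0.57 ± 0.20) and 0 fell, where 15.4% of all tested genes rose and 17.9% fell. The calls of Psmb8 and Psmb9 were each lost in 8 of 15 alternatives, among them those without vehicle A1 or A4 and without WT B28 or B30, and that of Psme2 in 5, among them those without A1, B28 or B30. In Rux and in combo against WT, 0 of the 7 passed, where 16.1% and 1.63% of all genes rose. In combo against AG221, Psme1 (-0.61 ± 0.17) and Psme2 (-0.88 ± 0.19), the PA28 subunits, fell, where 14.3% of all genes did. Psme1 was not called without AG221 A8 or A10 or without combo B24 or B25, and neither was called with A8 and A10 both left out.

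Among 21 tested assembly factors, other activators and proteasome-bound proteins, 4 rose and 1 fell in vehicle against WT, near the 15.4% of all tested genes for the rises. Pomp, the chaperone that matures the core, was at 112, 118 and 157 CPM in WT B28, B30 and B31 and at 207, 155 and 186 CPM in vehicle A1, A3 and A4, and rose by 0.50 ± 0.16. This call was lost in 8 of 15 alternatives, among them those without vehicle A1 or A4 and without WT B28 or B30, with log2 fold changes of 0.42 to 0.68 when 1 library was left out. Uchl5, a deubiquitinase of the cap, rose by 0.70 ± 0.14 and the ubiquitin shuttle Ubqln4 by 0.69 ± 0.16, while the shuttle Ubqln1 fell, at -1.55 ± 0.41. Both shuttles were not called without WT B30, nor was Ubqln1 without vehicle A1. In AG221 against vehicle, Psme4, the PA200 cap, rose by 0.81 ± 0.14, a call lost in 8 of 16 alternatives, among them those without any 1 vehicle library and without AG221 A8 or A10. In combo against vehicle, 4 rose and 1 fell (8.28% and 4.21% of all genes), among them Ubqln1 at 2.64 ± 0.43 and Akirin2, which carries proteasomes into the nucleus, at 2.09 ± 0.35, with Ubqln4 falling at -0.68 ± 0.16, not called without vehicle A1 or A4 or combo B24. In combo against Rux, Ubqln1 (2.53 ± 0.42) and Psme4 (0.87 ± 0.14) rose and Ubqln4 fell (-0.58 ± 0.16), a call lost when any 1 Rux or combo library was left out. In combo against AG221, Pomp fell, at -0.69 ± 0.16, and Ubqln1 rose by 2.20 ± 0.42.

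Of 12 genes of Nrf1 processing and ubiquitin supply, 4 rose and 0 fell in vehicle against WT, where 15.4% and 17.9% of all tested genes did. In combo against AG221 the ubiquitin genes Rps27a (-0.85 ± 0.14) and Ubb (-0.57 ± 0.12) fell, and the Nrf1-processing genes Nploc4 (2.14 ± 0.43) and Ngly1 (1.74 ± 0.38) rose. Ddi2, the protease that activates Nrf1, rose in combo against vehicle (0.77 ± 0.16) and against Rux (1.04 ± 0.16). Nfe2l1, the gene of Nrf1 itself, was at 47.7, 100.1 and 44.2 CPM in AG221 A8, A9 and A10 and at 120.2, 122 and 120 CPM in combo, and rose by 0.92 ± 0.31 (adjusted p = 0.0364). That call was lost in 9 of 16 alternatives, among them those without AG221 A8 or A10 or any 1 combo library, and the log2 fold change ran from 0.67 to 1.40 when 1 library was left out, the highest without A9. Its AG221 libraries split as those of Psmd3 and Psmd5 did, with A9 above A8 and A10.

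Reads shared with copies or overlapping genes were small for most members. The 4 pseudogenes named after members reached at most 0.438 CPM. Exons of Psmd9 (25.5% of their length), Psmb7 (11.8%) and Psmd13 (10.1%) overlap genes of the opposite strand, Gm26745, Nek6 and Sirt3, and 12.1% of Psmb5 holds Mir686 on the same strand. Whether reads were counted by strand was not stated, so values of these genes may include reads of their partners.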

How the data were processed

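The authors sorted CD45.2+ LSK cells, kept them in Trizol, extracted RNA, made libraries by SMARTer amplification, sequenced paired ends, and mapped and counted reads per Ensembl gene on mm10 (GRCm38), per the labels and the methods. The submitters' processing notes name STAR 2.5.1a and DESeq2 1.6.3. The Ensembl release and the strand setting were not given in the sources used here. The authors deposited raw counts per gene, which were used here as whole numbers, and normalized values, which were not used.

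Gene symbols, types and exon lengths came from GENCODE M21, matched by Ensembl identifier (44585 of 45232 matched). Genes passing edgeR's filterByExpr (17834) were fitted with edgeR 4.0.16 in R 4.3.3 (glmQLFit and glmQLFTest, TMM factors, 1 fit over the 15 libraries of 5 groups, no covariate). A gene was called higher or lower at a Benjamini-Hochberg adjusted p under 0.05 over all tested genes. SE is the log2 fold change divided by the square root of F. CPM are scaled by TMM, and CPM per kb are divided by the summed length of a gene's exons, so they compare genes. "Above" or "below" in every library means that the 2 groups do not overlap. The 10 contrasts share libraries, the vehicle and WT groups among them. Members, roles, pathway lists, markers and motifs were chosen with earlier results of these data known. Values in every library were given for Sem1, the catalytic subunits and, per comparison, the 3 called members with the smallest p in each direction. Psmd8, Psma8 and the split of the AG221 libraries were singled out after their values were seen, as was Psmd14. Of the pathway lists, Psmb8, Psmb9, Psme1, Psme2, Pomp, Nfe2l1 and the 3 called genes with the smallest p per direction could be named. Alternatives were RLE and upper quartile factors, other count filters, GC and transcript length offsets, a fit to the groups compared, DESeq2 1.42.0, and each library left out. The fits with no scaling factor and without AG221 A8 and A10 were added after seeing the data.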

Additional observations from a re-analysis of the deposited data

Results flagged for a closer look

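For 6 members the effect of AG221 differed between cells with and without ruxolitinib by a test of the difference itself, the interaction in the edgeR fit. Over all tested genes it was called negative for 2.82% and positive for 5.6%. On the log2 scale it was -0.997 ± 0.255 (SE, adjusted p = 0.0397) for Psmb7, -0.72 ± 0.21 (adjusted p = 0.05) for Psma7, -0.89 ± 0.23 (adjusted p = 0.0406) for Psmb2, -0.94 ± 0.18 (adjusted p = 0.0255) for Sem1, -0.88 ± 0.24 (adjusted p = 0.0434) for Psma2 and -0.88 ± 0.23 (adjusted p = 0.0426) for Psma3. The value for Psma7 lay just under the threshold. All 6 calls were lost without vehicle A3 or A4, AG221 A8 or A10, Rux A17, or combo B24 or B25. Only Sem1 was called in the fit to only the groups compared. For each of the 6, every AG221 library lay above every vehicle library, as for 25 of the 37 tested members and 12.7% of all genes. The same libraries gave the 6 calls, so this separation adds no support to them. The vehicle, AG221 and Rux libraries have names with A and the combo libraries names with B, so the letter cannot be told apart from the interaction. The summed neutrophil markers were also highest in AG221 and lowest in combo (means of 9406 CPM in vehicle, 17232 CPM in AG221, 14353 CPM in Rux and 5323 CPM in combo). Between Rux and vehicle the marker sums overlapped, at 11470 to 18130 CPM and 7228 to 12047 CPM. The members' median log2 fold change between these 2 groups was 0.07. The part of the markers in the interaction was not tested.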

How the results depend on the processing

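No paired analysis was possible because the groups share no replicate numbers in the labels. Over all alternatives, 394 of 480 counts and medians stayed within 1.5 times the count, or 1 SD of the median, and 86 did not, and no count or median changed its direction in a called result. The 394 include counts that were 0 in the reported fit and in every alternative. Among called counts, the falls in AG221 against WT moved in 15 of 16 alternatives and the rises in combo against WT in 13 of 15. The rises in AG221 against vehicle moved in 11 of 16 and the negative interactions in 15 of 22. The rises moved in 1 of 16 in AG221 against WT and in 6 of 15 in vehicle against WT, with the other called counts between. With upper quartile factors, 9 members rose in vehicle against WT, 2 fell in AG221 against WT, 0 rose in combo against WT at a median of 0.29, 10 rose in AG221 against vehicle, the median of combo against AG221 was -0.99, and the interaction gave 28 negative members at a median of -1.09. Of 17834 genes, these factors gave 4892, 9058, 641, 738, 7030 and 3124 calls in either direction in these comparisons, in that order. The median of all tested genes shifted under this scaling by 0.19 in AG221 against vehicle and by -0.29 in combo against AG221, and the members' median less that of all genes was 0.54 and -0.81, against 0.54 and -0.78 in the reported fit. Such differences can hardly change with the scaling and are no check on the counts. With no scaling factor, 5 members rose in vehicle against WT at a median of 0.34, 2 fell in AG221 against WT at a median of 0.83, 18 rose in Rux against WT at a median of 0.43, and 0 rose in combo against WT at a median of 0.29. Of 17834 genes, 5285, 9476, 5368 and 559 were then called in either direction. With RLE factors 0 rose in combo against WT, where 526 of 17834 genes were called in either direction. With at least 10 counts in every library, 2 fell in AG221 against WT, 0 rose in combo against WT, 14 rose in AG221 against vehicle, and 24 were negative in the interaction. Of 12732 genes, that filter gave 7029, 274, 906 and 2485 calls in either direction, in that order. With no filter beyond 1 count, and with the GC offset, 2 fell in AG221 against WT, and with the GC offset 5 rose in combo against WT. In AG221 against WT the former called 9869 of 37904 genes in either direction and the latter 9225 of 17834. In combo against WT the GC offset called 862 of 17834. With the length offset 0 fell in AG221 against WT, where 8857 of 17834 genes were called in either direction. In fits to only the groups compared, 0 fell in AG221 against WT, 4 rose in combo against WT, 0 rose in AG221 against vehicle, 1 rose in combo against AG221 and 1 was negative in the interaction. Over all genes, these fits called 8092 of 16913, 1788 of 16941, 0 of 15165, 3788 of 15201 and 167 of 16203 in either direction. With DESeq2, 2 fell in AG221 against WT, 4 rose in combo against WT, 20 rose in AG221 against vehicle and 23 were negative in the interaction. Of 37904 genes, DESeq2 called 10044, 1800, 2247 and 3671 in either direction, in that order. The fit without AG221 A8 and A10, given next, rests on a lone AG221 library, with its spread taken from the other groups. Its counts of called members, those of 0 included, cannot show whether the members differed, and no conclusion is drawn from them. With AG221 A8 and A10 both left out, 19 rose and 0 fell in AG221 against WT, 0 rose in AG221 against vehicle at a median of 0.22, 0 rose and 0 fell in combo against AG221 at a median of -0.40, the interaction gave 0 negative members at a median of -0.44, and the log2 fold change of Psmd8 in AG221 against vehicle turned to 0.18. Leaving out 1 library at a time, with the spread of the remaining libraries pooled over groups, gave 1 to 33 rises in vehicle against WT, 0 to 2 falls in AG221 against WT, 12 to 32 rises in Rux against WT, 0 to 3 rises in combo against WT, 0 to 26 rises and 0 to 3 falls in AG221 against vehicle, 0 to 3 rises and 13 to 29 falls in combo against AG221, and 0 to 3 positive and 0 to 27 negative members in the interaction. The number of all genes called changed in such fits too, as given above for many of them. The causes were not tested. Among the members, read depth limited Psmb11, and Psma8 in its lowest library, combo B26, at 0.0463 CPM.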
